A study of Mus musculus with 6 samples.

Results

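The 10 genes described here encode central parts of the JAK-STAT pathway. They are the receptor-bound kinases Jak1 and Jak2, the transcription factors Stat3, Stat5a and Stat5b, the feedback inhibitors Socs1, Socs2, Socs3 and Cish, and the STAT-induced kinase gene Pim1. They were matched by symbol among 51826 gene rows, each symbol had 1 gene ID, and all 10 passed the filter on low counts that 16071 genes passed. RNA was sequenced from neutrophils of mouse bone marrow after exposure to microvesicles, membrane particles shed by cells. In both groups the particles came from Hepa1-6 cells, a mouse hepatoma line, that had been deprived of glucose. The donor cells were wild type for the 3 control libraries (Ctrl_MV) and had an ezrin knockdown for the 3 knockdown libraries (KD_MV). Neutrophils without microvesicles are not analysed here. The sources used here do not give the mouse strain and age, the vesicle dose, the exposure time or the method of knockdown. Whether replicates are separate animals, cultures or repeat preparations is not in the labels. A p-value here sets the group difference only against the variation among these libraries, and that variation may be technical.

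Cytokine receptors of this class have no kinase of their own and use JAK proteins bound to their cytoplasmic tails. Ligand binding activates the JAKs, which phosphorylate the receptor and then STAT proteins, and STAT dimers enter the nucleus and switch on genes. Among those genes are SOCS family members, whose proteins bind JAKs or receptors and damp the signal. In neutrophils, granulocyte colony-stimulating factor signals largely through STAT3, with Socs3 as its brake, and granulocyte-macrophage colony-stimulating factor largely through STAT5, with Cish and Pim1 among its induced genes. Transcript levels do not show whether a STAT protein was phosphorylated.

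Total counts ran from 37346055 to 42043434 per library. KD_MV replicate 3 stood apart from the other libraries of its group, with a chi-square per degree of freedom of 88.1 and 83.7 against them, while these differed from each other by 18.5 and the Ctrl_MV libraries from each other by 21.4 to 33.5. The neutrophil label was only partly met. The defining neutrophil markers Ly6g and Cxcr2 stood at 3.13 to 4.55 TPM and 3 to 4.49 TPM over the 6 libraries (TPM, the deposited level per gene length). Retnlg stood at 1.34 to 8.84 TPM. Other neutrophil markers were higher: S100a9 stood at 2183 to 4581, S100a8 at 1117 to 2369 and Mmp8 at 131.5 to 281.9 TPM. Csf3r stood at 109.9 to 162.5 and Mmp9 at 51.2 to 118.8 TPM. The macrophage marker Adgre1 stood at 169 to 324 TPM and the B-cell receptor gene Cd79a at 171 to 583.9 TPM. Of the other monocyte and macrophage markers, Cd68 stood at 1038 to 1660 TPM and Csf1r at 104.3 to 135.8 TPM. The macrophage gene C1qa was scarce, with means of 0.274 CPM in Ctrl_MV and 0.342 CPM in KD_MV. Summed markers of several cell types moved with the groups, so that fewer cells of a type and less RNA per cell cannot be told apart for any gene below. Of the erythroid markers 8 of 9 fell (summed 106100 to 123300 CPM in Ctrl_MV and 9060 to 10630 in KD_MV). Of the neutrophil markers 4 of 8 fell, with sums that overlapped between the groups (2307 to 2703 and 1584 to 2373 CPM). The neutrophil count depended on scaling: 3 fell and 1 rose with library size only, and 2 fell and 2 rose on log2(TPM + 1). Rises were called for 4 of 7 eosinophil markers (23.96 to 27 and 406 to 572.1 CPM), 5 of 6 B-lineage markers (809.8 to 1002 and 1725 to 1811 CPM), 5 of 6 megakaryocyte markers (47.92 to 59.86 and 112.4 to 134.1 CPM) and 5 of 5 neutrophil precursor markers (6.81 to 7.18 and 37.3 to 47.6 CPM). The eosinophil genes Ear1 and Ear2 and the precursor gene Prtn3 passed the filter on low counts only through KD_MV. Over all tested genes 27.8% were called higher and 24.9% lower. With library size only these shares were 46.4% and 12.5%, and on log2(TPM + 1) they were 57.4% and 9.14%. Of 6 tested monocyte and macrophage markers 2 fell and 1 rose (2095 to 2268 and 1455 to 1694 CPM), and with library size only 1 fell and 1 rose. Of 3 tested hepatoma markers, genes of the cells that shed the vesicles, 2 fell, Afp and Alb (26.78 to 36.89 and 8.21 to 12.35 CPM). Alb passed the filter on low counts only through Ctrl_MV, so its call is a description and gives no support for a fall. The hepatoma genes Serpina1a and Fgb and the dendritic cell gene Cd209a were at 0 counts in every library. The part of these shifts in the results was not tested.

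Of the 10 genes, 1 rose (Socs1), 6 fell (Jak1, Jak2, Stat5a, Stat5b, Cish and Pim1) and 3 did not pass the test (Stat3, Socs2 and Socs3). The test was edgeR's quasi-likelihood test with TMM scaling factors and Benjamini-Hochberg adjustment over all 16071 genes at a threshold of 0.05, by which 52.6% of genes were called, 27.8% higher and 24.9% lower. The median log2 fold change of the 10, KD_MV minus Ctrl_MV as throughout, was -0.42, against 0.03 over all tested genes. None of the 10 moved by more than 1 on the log2 scale, which 4071 of all tested genes did, and the median absolute change was 0.43 against 0.55; Jak2, Socs1, Pim1 and Cish stood at the percentiles 62.5, 62.9, 65.4 and 69.5 of absolute change among all tested genes. The groups did not overlap for 7 of the 10, 1 with KD_MV higher and 6 with it lower, where 61.3% of all genes were separated in this way (32% higher and 29.3% lower). Scaling matters to this count. With library size as the only scaling, which moved the median gene by 0.40, Socs1, Stat3, Socs2 and Socs3 were called higher and Jak2, Cish and Pim1 lower, in a setting that called 58.9% of all genes, 46.4% higher and 12.5% lower. On deposited TPM, where the shift was 0.53, the same 4 were called higher and none lower, where 66.6% of all genes were called, 57.4% higher and 9.14% lower.

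**Figure D1:**
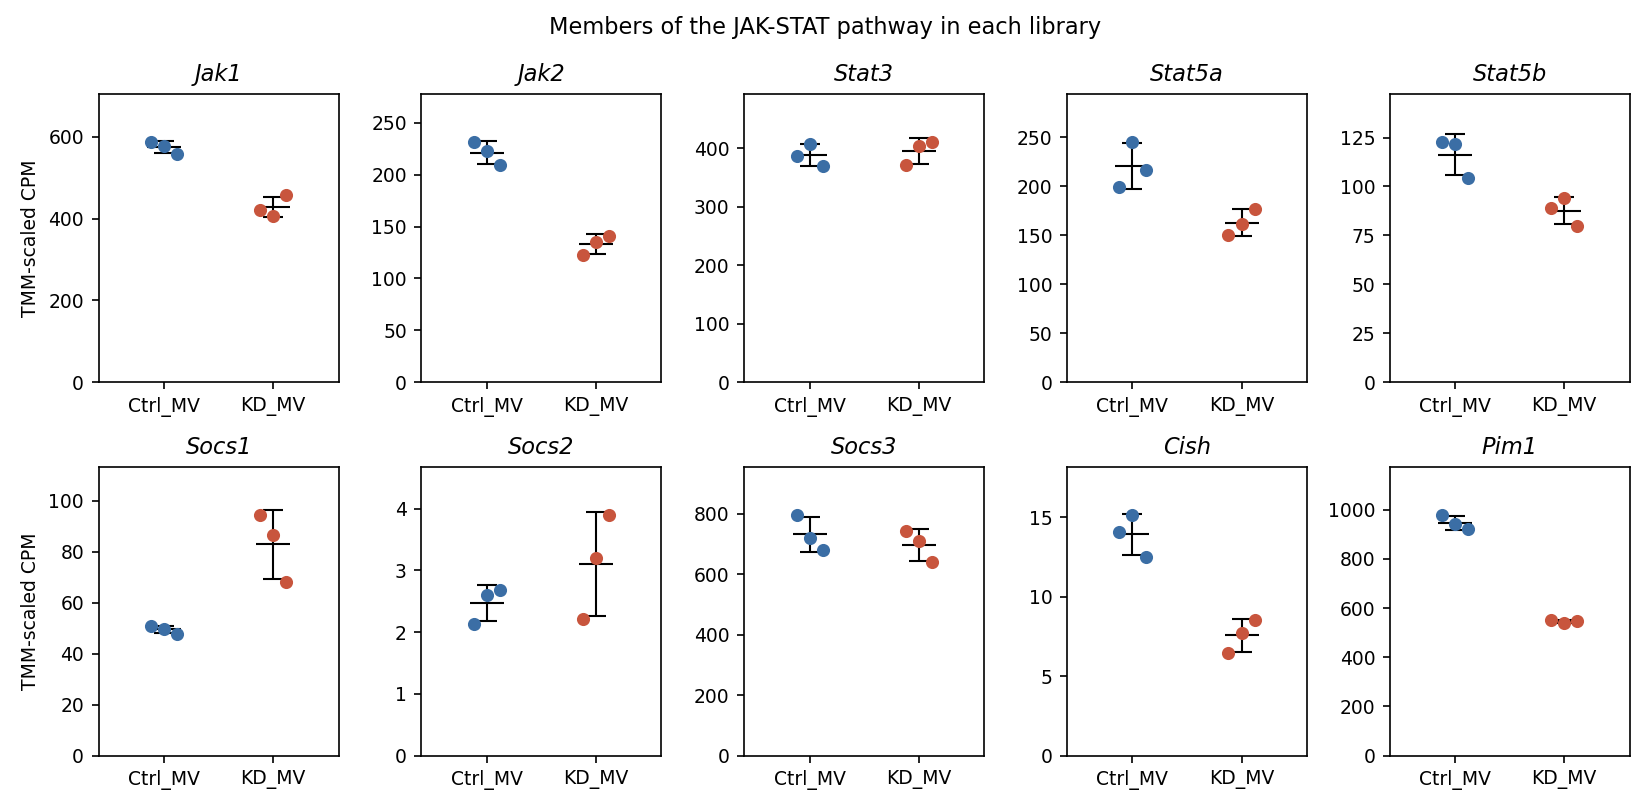
Level of each of the 10 genes in every library, in CPM scaled with TMM factors on a linear axis from 0; points are replicates 1, 2 and 3 from left to right, and the black bar and whiskers give mean and SD (n = 3). Socs1 lies higher in all KD_MV libraries, Jak1, Jak2, Stat5a, Stat5b, Cish and Pim1 lie lower, and the groups overlap for Stat3, Socs2 and Socs3.

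Jak1 and Jak2 encode the kinases on which most receptors of this pathway depend: JAK1 pairs with other JAKs at interferon and interleukin receptors, and JAK2 serves the receptors for erythropoietin and the colony-stimulating factors. Jak1 (chromosome 4, 101152367 to 101265282, minus strand, mm10) stood at 588, 577 and 559 CPM in Ctrl_MV replicates 1, 2 and 3 and at 422, 407 and 457 CPM in KD_MV replicates 1, 2 and 3. Every KD_MV library was below every Ctrl_MV library. Jak1 was called lower, with a log2 fold change of -0.42 ± 0.10 (SE, adjusted p = 0.00522). With library size alone it was -0.02 (adjusted p = 0.856), and on log2(TPM + 1) it turned to 0.15 (adjusted p = 0.197). Jak2 (chromosome 19, 29251828 to 29313080, plus strand) stood at 232, 222 and 209 CPM in Ctrl_MV and at 122, 135 and 141 CPM in KD_MV. Again the groups were fully separated. Jak2 fell 1.67-fold (log2 fold change -0.74 ± 0.10 (SE), adjusted p = 3.09e-04), and with library size only by 0.33 on the log2 scale (adjusted p = 0.0167); on log2(TPM + 1) the difference of -0.17 was not called (adjusted p = 0.213). A ratio of 2 genes in one library does not depend on how libraries are scaled. The TPM ratio of Jak2 to Jak1 was 0.369, 0.364 and 0.353 in Ctrl_MV and 0.271, 0.309 and 0.293 in KD_MV, so Jak2 was lower relative to Jak1 in each KD_MV library.

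The 3 STAT genes lie side by side on chromosome 11, where 8626 bases separate Stat5b (100780731 to 100850724, minus strand) from Stat5a (100859351 to 100885169, plus strand), and Stat5a and Stat3 (100885098 to 100939540, minus strand) overlap tail to tail by 72 exonic bases. The sources used here do not say whether counting used strand, so reads in those 72 bases are uncertain. STAT5A and STAT5B are close paralogs, so reads from near-identical stretches may be split between them or dropped. Stat3, the main mediator of interleukin-6, interleukin-10 and granulocyte colony-stimulating factor signals, stood at 387, 408 and 371 CPM in Ctrl_MV and at 371, 404 and 411 CPM in KD_MV. The groups overlapped almost completely. The log2 fold change of Stat3 was 0.03 ± 0.10 (SE), with a 95% interval of -0.19 to 0.24 (adjusted p = 0.841). The direction of Stat3 turned to -0.003 with RLE factors, and its call appeared with library size only (0.43, adjusted p = 0.00476) and on log2(TPM + 1) (0.65, adjusted p = 0.00184).

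Stat5a and Stat5b, which carry signals of the colony-stimulating factors, erythropoietin and interleukin-2 family cytokines, differed alike. Stat5a stood at 199, 246 and 217 CPM in Ctrl_MV and at 150, 162 and 177 CPM in KD_MV. Stat5b stood at 123, 122 and 104 CPM in Ctrl_MV and at 89.1, 93.9 and 80 CPM in KD_MV. Both genes were lower in every KD_MV library than in any Ctrl_MV library, with log2 fold changes of -0.44 ± 0.11 (SE, adjusted p = 0.0108) for Stat5a and -0.41 ± 0.11 (SE, adjusted p = 0.0123) for Stat5b. Neither call held with library size only (-0.03, adjusted p = 0.812, and -0.002, adjusted p = 0.988), and on log2(TPM + 1) both turned positive without a call (0.12 and 0.14). The share of Stat5a in the TPM of the pair was 71.2, 75.3 and 74.7% in Ctrl_MV and 71.7, 72.3 and 76.5% in KD_MV, with overlapping groups. Relative to the STAT5 pair, Stat3 was higher: the TPM ratio of Stat3 to Stat5a plus Stat5b was 1.2, 1.09 and 1.1 in Ctrl_MV and 1.56, 1.61 and 1.71 in KD_MV, and the groups were separated whatever the scaling between libraries.

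The SOCS genes were the part of the set that moved in both directions. Socs1 encodes an inhibitor that binds JAK catalytic domains and restrains interferon-gamma signals above all, Socs3 one that binds the interleukin-6 and granulocyte colony-stimulating factor receptors, Socs2 a regulator of growth hormone signals, and Cish an inhibitor induced by STAT5. RefSeq promoter windows, 250 bases before to 50 after a gene's start on GRCm38.p6, were available for 9 of the 10 genes (all but Socs2) as 12 windows. They were searched on both strands for TTCNNNGAA, the core of the gamma-activated sequence that STAT dimers bind, and for GAAA followed by any 2 bases and GAAA again, the core of the interferon-stimulated response element that interferon regulatory factors bind. The first is in the windows of 2 of these genes, Socs3 and Cish, and in 8.3% of 32851 windows of all genes. The second is in that of Socs1 and in 3.44% of all windows. The stretches that hold these letters are printed because the 3 genes differed in response, with matches in capitals; letters alone show no bound factor. Starts here are those of RefSeq, which for Socs3 and Cish lie inside the gene bounds of the deposited table printed with their values. For Socs1 and Socs3 the stretches are the 250 bases upstream of the RefSeq start (chr16:10785537-10785786 and chr11:117969367-117969616, both on the minus strand), and for Cish a window of 30 bases at the RefSeq start (chr9:107296655-107296684, plus strand).
Socs1: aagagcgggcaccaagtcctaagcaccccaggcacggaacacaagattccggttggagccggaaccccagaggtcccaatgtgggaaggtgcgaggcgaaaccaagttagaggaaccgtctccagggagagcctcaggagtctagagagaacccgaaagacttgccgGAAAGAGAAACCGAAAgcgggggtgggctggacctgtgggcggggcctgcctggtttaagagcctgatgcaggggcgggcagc
Socs3: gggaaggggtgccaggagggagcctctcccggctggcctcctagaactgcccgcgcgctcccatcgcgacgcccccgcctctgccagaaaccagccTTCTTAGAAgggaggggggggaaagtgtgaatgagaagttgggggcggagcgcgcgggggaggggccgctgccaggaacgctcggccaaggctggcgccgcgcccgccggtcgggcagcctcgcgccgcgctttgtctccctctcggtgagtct
Cish: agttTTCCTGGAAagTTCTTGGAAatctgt
In Socs1 there are 2 overlapping matches, which begin 83 and 77 bases before the start. The match of Socs3 begins 154 bases before it, and the 2 of Cish begin at bases 1 and 12 of the transcript.

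Socs1 (chromosome 16, 10783808 to 10785536, minus strand) stood at 50.9, 49.8 and 47.9 CPM in Ctrl_MV and at 94.4, 86.4 and 68 CPM in KD_MV. The Ctrl_MV libraries lay close together, all KD_MV libraries were above them, and KD_MV replicate 3 was the lowest of its group. Socs1 rose 1.68-fold (log2 fold change 0.74 ± 0.13 (SE), adjusted p = 0.00141), and it rose by 0.86 without KD_MV replicate 3 (adjusted p = 1.57e-04). It was called higher with library size only (1.15) and on log2(TPM + 1) as well (1.28), but not against a fold threshold of 1.5 (adjusted p = 0.136). Relative to Jak1, whose product it inhibits, Socs1 was higher in each KD_MV library: the TPM ratio was 0.332, 0.335 and 0.332 in Ctrl_MV and 0.859, 0.811 and 0.58 in KD_MV.

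Socs3 (chromosome 11, 117966079 to 117970047, minus strand) was the most abundant SOCS gene. It stood at 796, 722 and 681 CPM in Ctrl_MV and at 743, 711 and 639 CPM in KD_MV. The groups overlapped, and the log2 fold change of -0.07 ± 0.11 (SE) had a 95% interval of -0.32 to 0.18 (adjusted p = 0.616). The direction turned with library size only (0.33, adjusted p = 0.0276) and on log2(TPM + 1) (0.49, adjusted p = 0.0058). Set against Stat3, which induces it, Socs3 showed overlapping groups: the TPM ratio was 3.04, 2.66 and 2.9 in Ctrl_MV and 3.01, 2.58 and 2.17 in KD_MV.

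Cish (chromosome 9, 107296026 to 107302784, plus strand) stood at 14.1, 15.1 and 12.5 CPM in Ctrl_MV and at 6.43, 7.74 and 8.52 CPM in KD_MV. All KD_MV libraries were lower. The overlapping genes Gm17040 and Gm17041 hold only 16 and 28 counts over all libraries. Cish fell 1.84-fold (log2 fold change -0.88 ± 0.15 (SE), adjusted p = 0.00121). It was called lower with library size only too (-0.48, adjusted p = 0.0241), but not on log2(TPM + 1) (-0.16, adjusted p = 0.325). Socs2 (chromosome 10, 95385362 to 95417180, minus strand) was scarce, with 69 to 90 reads in Ctrl_MV and 99 to 186 in KD_MV. It stood at 2.14, 2.6 and 2.68 CPM in Ctrl_MV and at 2.22, 3.21 and 3.9 CPM in KD_MV. KD_MV replicate 1 fell inside the Ctrl_MV range, and the log2 fold change of 0.33 ± 0.24 (SE) had a 95% interval of -0.21 to 0.87 (adjusted p = 0.278); it was 0.13 without KD_MV replicate 3 (adjusted p = 0.676) and 0.52 without KD_MV replicate 1 (adjusted p = 0.084), and with library size only it was called higher (0.73, adjusted p = 0.027).

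The makeup of the SOCS set shifted between the groups. Of the summed TPM of the 4 SOCS genes, Socs1 held 11.4, 12.2 and 12.5% in Ctrl_MV and 20.6, 19.9 and 17.7% in KD_MV. Socs3 held 87.1, 86.1 and 85.9% and then 78.5, 78.9 and 80.7%. Cish held 1.1, 1.27 and 1.2% and then 0.546, 0.69 and 0.838%, and for these 3 genes the groups did not overlap. The share of Socs2 was below 1% in every library, with overlapping groups. Shares of 1 sum move against each other, so the lower share of Socs3 shows no separate decline of that gene. The deposited TPM of Socs3 was 382 ± 41.4 in Ctrl_MV and 536 ± 35.7 in KD_MV (SD, n = 3), and its CPM overlapped between the groups. The TPM ratio of Socs1 to Cish was 10.4, 9.62 and 10.4 in Ctrl_MV and 37.7, 28.8 and 21.2 in KD_MV, so the lowest KD_MV ratio was above the highest in Ctrl_MV.

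Pim1 (chromosome 17, 29490812 to 29496111, plus strand), a serine/threonine kinase gene that STAT3 and STAT5 switch on and whose product favours survival, stood at 978, 944 and 921 CPM in Ctrl_MV and at 554, 540 and 546 CPM in KD_MV. The libraries of each group were close together and the groups far apart. Pim1 fell 1.73-fold (log2 fold change -0.79 ± 0.09 (SE), adjusted p = 1.48e-04), with library size only by 0.39 on the log2 scale (adjusted p = 0.00537); on log2(TPM + 1) the difference of -0.22 was not called (adjusted p = 0.0619). Pim1 and Cish passed the test against a fold threshold of 1.5, and the other 8 genes did not, where 24.2% of all genes did (13.6% higher and 10.6% lower). An antisense gene, Gm26885, shares 488 exonic bases with Pim1, but its counts equalled 1.84 to 2.2% of those of Pim1 over the 6 libraries. Pim1 and Socs3, both induced by STATs, changed places: the TPM ratio of Socs3 to Pim1 was 0.856, 0.802 and 0.772 in Ctrl_MV and 1.41, 1.37 and 1.23 in KD_MV. This ratio, those of Socs1 to Cish and Jak1, that of Socs3 to Stat3 and that of Stat3 to the STAT5 pair were chosen after their values were seen.

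**Figure D2:**
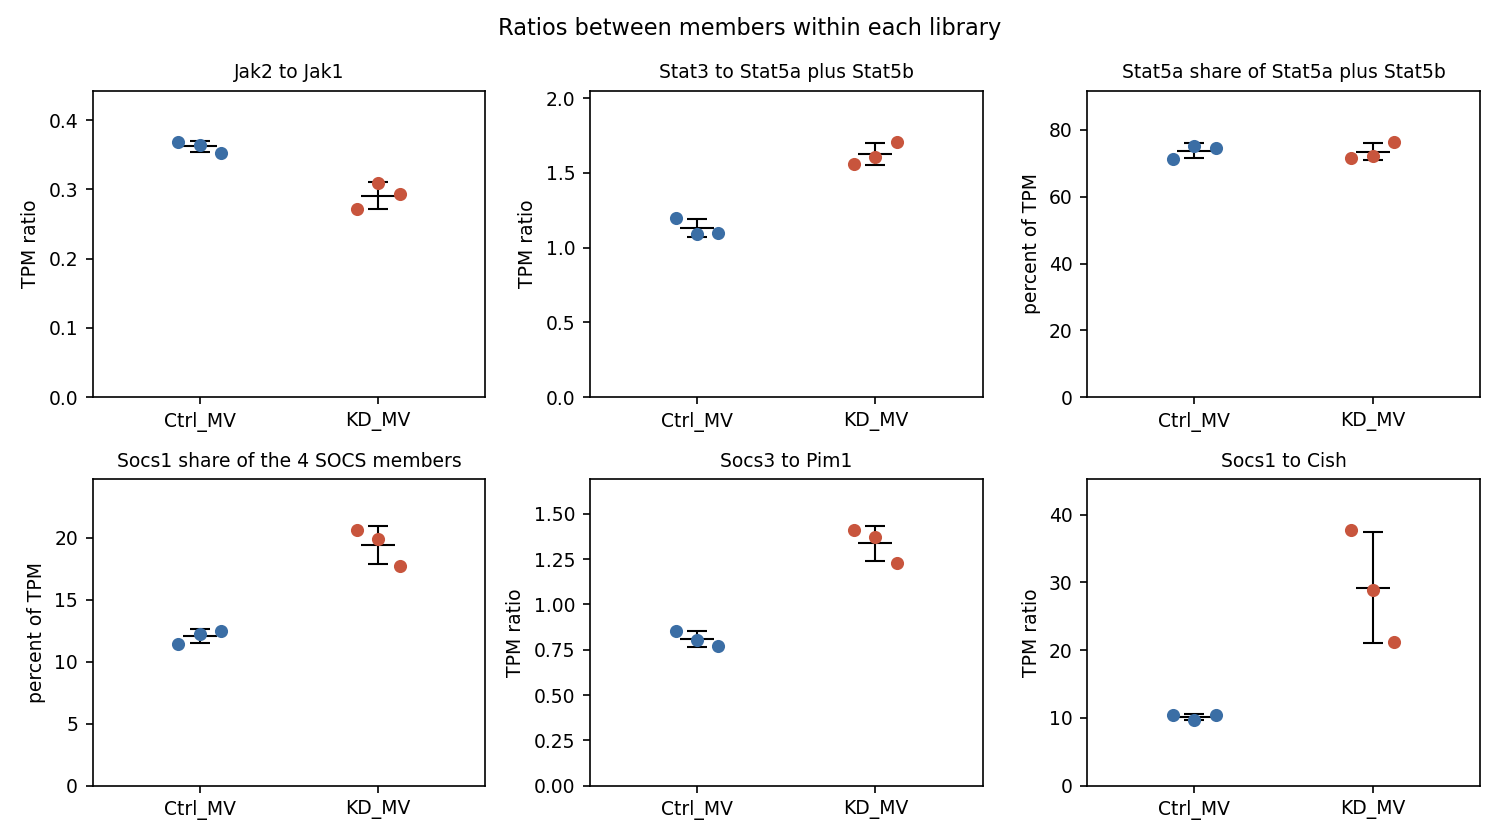
Ratios and shares between genes within each library, from deposited TPM on linear axes from 0; points are replicates 1, 2 and 3 from left to right, and bars and whiskers give mean and SD (n = 3). For Socs3 to Pim1 the libraries lie at 0.772 to 0.856 in Ctrl_MV and 1.23 to 1.41 in KD_MV, and for the share of Stat5a the groups overlap; the ratios of Stat3 to the STAT5 pair, Socs3 to Pim1 and Socs1 to Cish were chosen after their values were seen, so their separation is a description.

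Measured per gene length, the 10 genes spanned a wide range of levels. In Ctrl_MV, Pim1 came first with 470 ± 26.1 TPM (SD, n = 3), then Socs3 with 382 ± 41.4, Jak1 with 160 ± 8.7, Stat3 with 133 ± 12.7, Stat5a with 87 ± 9.08, Jak2 with 57.8 ± 4.46, Socs1 with 53.1 ± 2.9, Stat5b with 30.9 ± 3.25, Cish with 5.25 ± 0.372 and Socs2 with 1.79 ± 0.103 TPM. Between neighbours in that order, the ranges of Jak2 and Socs1 overlapped and those of the other pairs did not. In KD_MV, Socs3 came first with 536 ± 35.7 TPM and Pim1 next with 402 ± 4.7, Stat3 (210 ± 22.2) stood beside Jak1 (177 ± 9.49) with overlapping ranges, and Socs1 with 132 ± 20 TPM stood above Stat5a with 94.7 ± 8.72 TPM. Jak2, Stat5b, Cish and Socs2 closed the order as before, but Cish (4.63 ± 0.665 TPM) and Socs2 (3.6 ± 0.841 TPM) then had overlapping ranges.

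**Figure D3:**
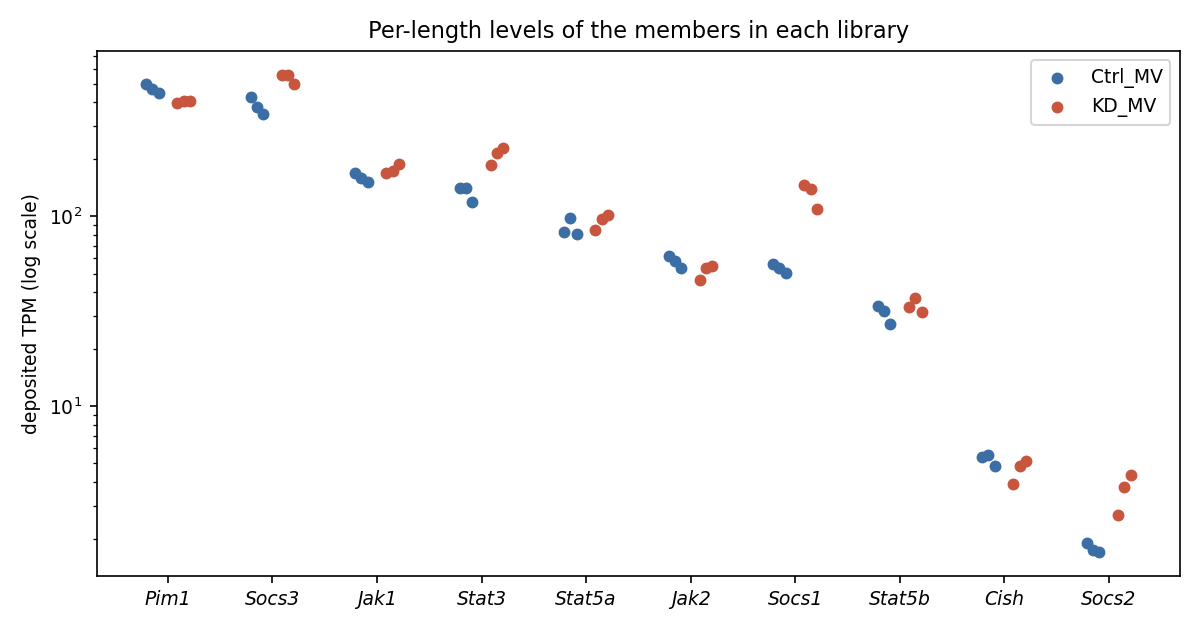
Deposited TPM of each gene in each library on a log axis, ordered by the Ctrl_MV mean; each point is a library, 3 per group. Socs1 lies between 50.1 and 55.9 TPM in Ctrl_MV and between 109 and 146 TPM in KD_MV, and Socs2 and Cish are the least abundant of the 10.

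The remaining JAK and STAT genes moved apart from each other. Jak3, the kinase of receptors that use the common gamma chain, rose from 62.5 ± 4.03 to 142 ± 12.8 CPM (SD, n = 3; log2 fold change 1.18 ± 0.11 (SE), adjusted p = 3.82e-05), whereas Tyk2 was not called (-0.40, adjusted p = 0.124). Stat6, the mediator of interleukin-4 and interleukin-13, fell from a mean of 489 ± 20 CPM to a mean of 289 ± 11 CPM (SD, n = 3; log2 fold change -0.76 ± 0.09 (SE), adjusted p = 1.91e-04). Stat4, which serves interleukin-12, rose (0.45, adjusted p = 0.0186), and Stat2 (0.31, adjusted p = 0.087) was not called, although it was called higher with library size only (0.71) and on log2(TPM + 1) (1). Jak3 and Stat4 were also called higher with library size only and on log2(TPM + 1), while Stat6 kept its call with library size only (-0.36) and not on log2(TPM + 1) (-0.18, adjusted p = 0.174).

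Among the other inhibitors, 2 of 4 further SOCS genes fell and 0 rose, where 24.9% of all tested genes fell and 27.8% rose. Socs5 was at -1.50 (adjusted p = 2.01e-04) and Socs4 at -0.87 (adjusted p = 1.02e-04), both called lower on each scaling. Of 11 other negative regulators 2 fell and 0 rose, the phosphatase gene Ptpn2 at -0.73 (adjusted p = 0.00131) and the SUMO ligase gene Pias4 at -0.53 (adjusted p = 0.00267). With library size only the count of that list became 1 lower and 3 higher, where 12.5% of all genes were called lower and 46.4% higher. Its median went from -0.15 to 0.25, so no direction holds for it across scalings. Pias4 was at -0.12 with library size only, and on log2(TPM + 1) at 0.07.

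Upstream of the 10 genes, receptor genes coupled to JAKs fell in 13 of 29 tested cases and rose in 3. Their median was -0.27, and among all tested genes 24.9% were called lower and 27.8% higher. Scaling by the size of each library alone called 46.4% of all genes higher and 12.5% lower. In that setting 10 of these receptor genes were called higher and 6 lower, and their median turned to 0.14. Those with the smallest p among the falls were Csf2ra, the alpha chain of the receptor for granulocyte-macrophage colony-stimulating factor (415 ± 35.1 to 156 ± 17.5 CPM, SD, n = 3; log2 fold change -1.41 ± 0.12 (SE), adjusted p = 2.58e-05), the interleukin-7 receptor Il7r (-1.23) and the interleukin-6 receptor Il6ra (-1.30), each called lower on every scaling. Among the rises were the interleukin-12 receptor subunit Il12rb1 (2.20, adjusted p = 2.36e-05) and the shared interleukin-2 receptor chain Il2rb (0.49).

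Ligand genes fell in 10 of 16 tested cases and rose in 2, with a median of -1.45, where 24.9% of all tested genes fell and 27.8% rose. Of 21 listed, Il11, Il3, Il5, Epo and Thpo were not tested, and Il3 and Epo were at 0 counts in every library. Osm, a ligand of the interleukin-6 family made by neutrophils, stood at 118, 109 and 108 CPM in Ctrl_MV and at 21.9, 20 and 17.8 CPM in KD_MV (log2 fold change -2.49 ± 0.11 (SE), adjusted p = 1.32e-06), and Il6 (-3.22) and Il23a (-3.58) fell further. Il27 (0.47, adjusted p = 0.0195) and Il4 (1.55, adjusted p = 0.0142, at 0.203 CPM in Ctrl_MV and 0.598 CPM in KD_MV) rose. Il4 passed the filter on low counts only through KD_MV, so its call is a description and gives no support for a rise. On library size only 10 ligand genes fell and 5 rose, where 12.5% of all genes fell and 46.4% rose.

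Genes that STAT3 or STAT5 can switch on were divided: 10 of 18 fell and 3 rose, where 24.9% of all tested genes fell and 27.8% rose. Cebpd, a transcription factor gene, went from 55.5 ± 2.26 to 17.8 ± 1.64 CPM (SD, n = 3; log2 fold change -1.64 ± 0.11 (SE), adjusted p = 8.88e-06), Bcl2l1, which encodes the survival protein BCL-XL, from 103 ± 8.19 to 37.7 ± 6.1 CPM (-1.46) and Pim2, a paralog of Pim1, from 195 ± 21.9 to 90.9 ± 0.74 CPM (-1.10). These 3 were called lower on each scaling. The growth genes Ccnd2 (0.80) and Myc (1.19) and the acute-phase gene Lrg1 (2.13) rose. With library size only the count became 5 lower and 6 higher, where 12.5% of all genes fell and 46.4% rose. The list median went from -0.50 to -0.10 with library size only, and to 0.08 on log2(TPM + 1).

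Targets of interferon-gamma gave another count, with 9 of 12 higher, 1 lower and a median of 0.85, against 27.8% of all tested genes higher and 24.9% lower. Irf8, a myeloid and B-cell transcription factor, stood at 246, 298 and 234 CPM in Ctrl_MV and at 540, 515 and 497 CPM in KD_MV (log2 fold change 0.996 ± 0.12 (SE), adjusted p = 1.47e-04). Ciita, the master regulator of class II genes, rose too (1.69, adjusted p = 1.10e-04), as did Cxcl9 (5.19), while Cd274, which encodes the checkpoint ligand PD-L1, fell (-1.04, adjusted p = 8.34e-05). The count was 10 higher and 1 lower with library size only and on log2(TPM + 1), where 46.4% and 57.4% of all genes were called higher. Irf8 and Ciita are also expressed in B cells, whose markers rose in 5 of 6 cases, and the part of those cells was not tested.

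**Figure D4:**
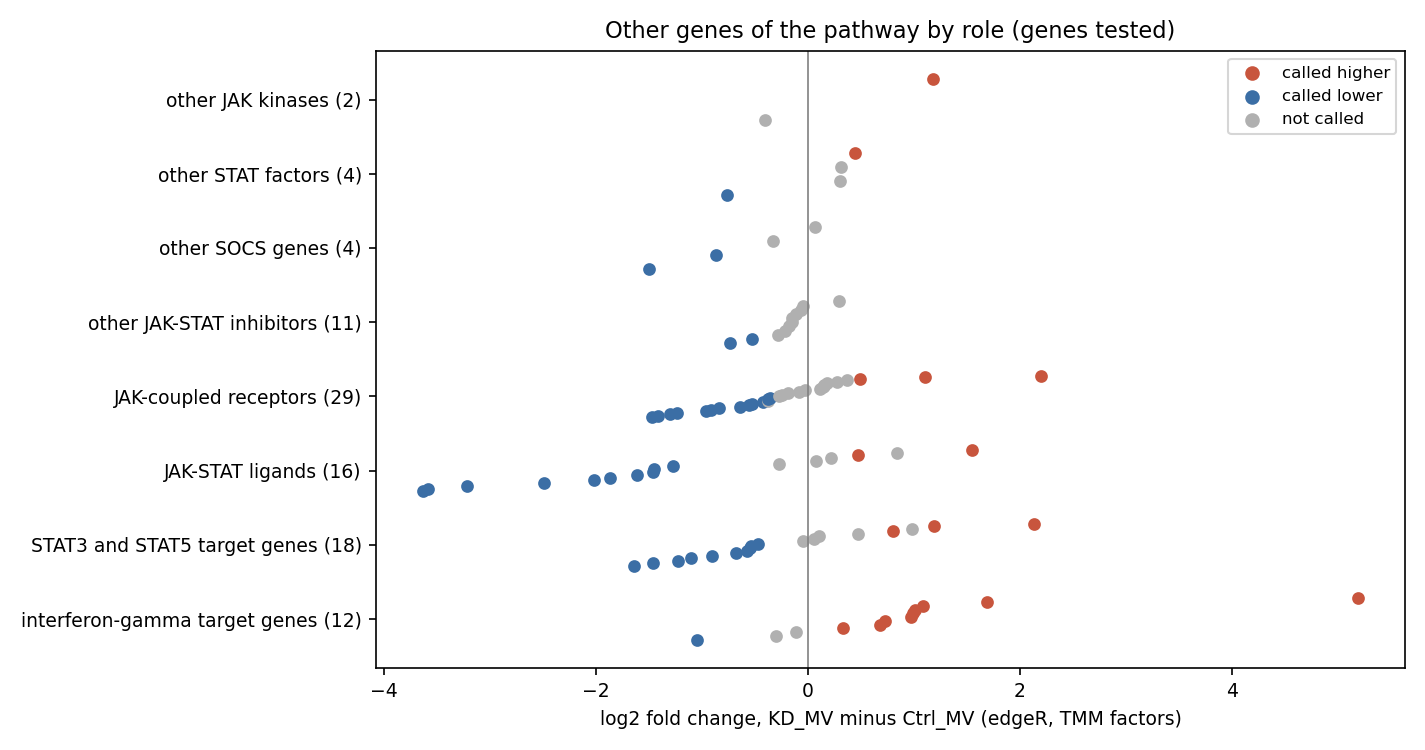
Log2 fold change, KD_MV minus Ctrl_MV, of every tested gene on the 8 lists of other pathway genes, from edgeR with TMM factors; each point is a gene, red called higher, blue called lower, grey not called, with the number tested in brackets and vertical offsets that only separate points. Ligand genes reach from -3.63 to 1.55, the latter for Il4, which passed the filter on low counts only through KD_MV. Of 12 interferon-gamma targets 9 lie among the called rises, where 27.8% of all tested genes do.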

How the data were processed

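Stranded libraries of neutrophil RNA, 3 per group, were analysed. The submitters' processing notes list Trim Galore, Subread and featureCounts, and the mm10 build, without versions. The deposited table holds, per the file headers, raw counts, TPM and FPKM per gene. The deposited counts were whole numbers and carried no normalization. The deposited TPM summed to 999842 to 999905 per library, and the gene length implied by count over TPM varied between libraries by over 5% for 55.9% of 8908 well-counted genes (the highest was 1.14 times the lowest for Cish and 1.13 times for Stat3), so TPM differences can hold a change of length. The deposited FPKM was proportional to TPM within a library and not used further. Among counts of 1 to 20, 55.5 to 57.9% were even, so halved counts were tried.

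Differential expression used edgeR 4.0.16 (R 4.3.3): filterByExpr at minimum count 10 and total 15, TMM factors, and the quasi-likelihood fit and F test (glmQLFit, glmQLFTest) with group as the single term. Tests were two-sided, and p-values of 16071 genes were adjusted by Benjamini-Hochberg (threshold 0.05). CPM are TMM-scaled. SE was computed by dividing the absolute log2 fold change by the root of F. The procedure was tested on simulated data in which a small part of the genes rose or fell by similar folds. That test could not judge the choice of scaling for these libraries. Alternatives were RLE (in edgeR and DESeq2 1.42.0), upper-quartile factors, library size alone, a filter of CPM 1 or more in at least 3 libraries, no filter, limma-voom (limma 3.58.1), limma on log2(TPM + 1) or log2(TPM + 0.1) for genes averaging 1 TPM or more, a replicate block, each library left out, genes of hemoglobin, mitochondria and ribosomal proteins left out, halved counts, adjusted p of 0.01 and a fold threshold of 1.5. Named genes were the 10 members and, from each pathway list, up to 3 called genes per direction with the smallest p; Tyk2 and Stat2 were added after their values were seen, and some listed genes are not reported here. Members, lists and motifs were chosen with earlier results of these data known. Promoter sequences are from RefSeq (GRCm38.p6). Positions are those of the deposited table, which equal GENCODE M21 except for Socs1 and Pim1; all 10 genes are protein-coding there.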

Additional observations from a re-analysis of the deposited data

How the results depend on the processing

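The counts of 1 member called higher and 6 lower were the same with RLE and upper-quartile factors, no or a stricter filter, DESeq2, limma-voom, the replicate block, halved counts and hemoglobin, mitochondrial and ribosomal protein genes left out, and without each library (1 higher and 6 lower each time, among 7290 to 8710 genes called). With library size only 4 were higher and 3 lower. On log2(TPM + 1) and on log2(TPM + 0.1) 4 were higher and 0 lower. Against a fold threshold of 1.5, 0 were higher and 2 lower, and 3885 genes were called, in place of 8459. Without 1 library, Stat3 ranged from -0.009 to 0.068. Reversed signs were those of Stat3 with RLE factors (-0.003), DESeq2 (-0.003), without Ctrl_MV replicate 3 (-0.008) and without KD_MV replicate 3 (-0.009), of Socs3 with library size only (0.33), and on log2(TPM + 1) and log2(TPM + 0.1) of Jak1 (0.15 and 0.15), Stat5a (0.12 and 0.12), Stat5b (0.14 and 0.14) and Socs3 (0.49 and 0.49). Scaling moved the median gene by 0.40 (library size only) and 0.53 (log2(TPM + 1)), and 78.8% and 86.3% of calls were then higher, in place of 52.8%. At an adjusted p of 0.01, Stat5a and Stat5b lost their calls. Deviations of same-numbered libraries correlated at -0.007, -0.079 and -0.054, and those of differently numbered libraries at -0.033 to 0.088. Such small correlations cannot show whether same-numbered samples shared an animal or preparation. The replicate block gave 7799 calls and 1 higher and 6 lower members. Socs2, at 69 to 186 reads, is the member most limited by depth.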
